A study of Drosophila melanogaster with 9 samples.

Results

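The long Toll receptors are the branch of the Drosophila Toll family with long extracellular stretches of leucine-rich repeats, and 18w (18-wheeler, also Toll-2), Toll-6, Toll-7 and Tollo (Toll-8) were taken as their epithelial members, with Tl itself left out. Genes were assigned by the symbol that the platform annotation gives to each probe set. The set was selected on earlier results of these same arrays (log2 intensities in the WT, GOF and LOF groups), so the values of its genes are a description and carry no test of their own. The annotation named a probe set for 3 of the 4 genes, 1 each for 18w, Toll-7 and Tollo, among 10844 genes in all. It named none for Toll-6, which was not analysed here.

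Toll family receptors span the membrane, with leucine-rich repeats outside the cell and a signalling TIR domain inside. Tl, the founding member, patterns the dorsoventral axis and drives immune responses once it binds the cleaved ligand Spätzle. The long receptors are best known from epithelia: in the early embryo 18w, Toll-6 and Tollo are made in stripes under the pair-rule genes and guide myosin to particular cell contacts during germ-band extension. Later, 18w is required for cells of the salivary gland to invaginate, Toll-7 acts as a neurotrophin receptor in the nervous system and in antiviral defence, and Tollo acts in the airway epithelium, at neuromuscular synapses and in neural glycosylation.

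RNA of whole dechorionated embryos was hybridised to 9 Affymetrix arrays, 3 independent RNA samples for each of 3 genotypes. Eggs were collected over 2 h and aged about 9 h at 25 °C to stages 13 and 14, during dorsal closure. The labels put at least 85% of the embryos at these stages. WT embryos carried w and neither driver nor transgene. GOF embryos (w; UAS-hepACT/+; 69B/+) expressed activated Hep, the kinase directly above the Jun N-terminal kinase (JNK), under 69B-GAL4, which is active in the ectoderm. LOF embryos (y w heprev75/y w hep1) combined a pair of hep alleles, and w was common to all groups. Values are the deposited linear intensities, and a log2 difference is a difference of group means of log2(intensity + 1) with its standard error (SE) and 95% confidence interval from 1 limma fit over all genes and arrays. The sources used here do not give the base with which the authors returned their log values to the linear scale, and folds are therefore also given for base e. A gene is called where its adjusted p in limma (Benjamini-Hochberg over 10844 genes) was under 0.05. For counts at an unadjusted p under 0.05 no share over all genes was worked out, and nothing is read from them. In bulk RNA, fewer cells of a type and less RNA per cell cannot be told apart.

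Array medians lay between 688 and 709, and within groups the correlation between arrays across genes was 0.992 to 0.997. hep did not differ measurably in GOF (adjusted p = 0.859 in limma) or LOF (0.97), and the sources used here do not place its probes relative to the transgene or the lesions. puc, the JNK phosphatase gene that JNK itself induces, had means ± SD of 2304 ± 270 (WT), 6142 ± 761 (GOF) and 1752 ± 55.7 (LOF), with n = 3 each. It was called higher in GOF (adjusted p = 2.49e-06 in limma) but was not called in LOF (adjusted p = 0.0832). GOF arrays also carried much RNA of maternal egg genes: 8 of 10 measured genes of that list were called higher, against 16.6% of all genes, with summed intensities of 2981 to 3257 in WT, 23388 to 40283 in GOF and 4487 to 4969 in LOF. twe (log2 difference 4.65), smg (4.36), swa (4.23) and plu (2.51) had the smallest p. A filter that removed the dimmest 40% of genes took out swa, plu, tej, osk and dhd. The 3 called genes that it left (twe, smg and bcd) stayed called. In LOF, 4 of 10 were called higher (smg, swa, dhd and twe), against 1.36% of all genes, and the count was 1 without WT replicate 1, LOF replicate 1 or LOF replicate 2. The part of maternal RNA in any result below was not tested.

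18w was the long Toll receptor gene with the steadiest readings and the largest difference. It read 21565, 22131 and 21877 on the WT arrays, 11186, 9743 and 7852 on the GOF arrays, and 20988, 18609 and 19626 on the LOF arrays. All GOF readings lay far below all others, and all LOF readings lay just below all WT readings. The group means were 21858 ± 284 in WT, 9594 ± 1672 in GOF and 19741 ± 1194 in LOF (SD, n = 3 each). The log2 difference of GOF from WT was -1.20 (SE 0.12, interval -1.47 to -0.94), which is 2.3-fold lower, or 1.78-fold if base e was used. Of all 10844 genes, 92 (0.848%) had a more negative difference in that comparison. LOF differed from WT by -0.15 (SE 0.12, interval -0.41 to 0.11) and GOF from LOF by -1.05 (SE 0.12, interval -1.32 to -0.79). The order of the levels was thus WT, LOF, GOF: GOF stood apart from LOF beyond the spread, whereas the interval of the step from WT to LOF included 0.

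Toll-7 was also lowest in GOF, with more scatter. It read 2916, 2055 and 3333 on the WT arrays, 1576, 1614 and 940 on the GOF arrays, and 2055, 1995 and 2191 on the LOF arrays. The GOF readings lay below all WT and all LOF readings, while the WT and LOF readings overlapped, WT replicate 2 and LOF replicate 1 being equal. Means were 2768 ± 652 in WT, 1377 ± 379 in GOF and 2080 ± 100 in LOF (SD, n = 3 each). GOF differed from WT by -1.02 on the log2 scale (SE 0.21, interval -1.48 to -0.56), a 2.03-fold lower level or 1.63-fold with base e, and 183 genes (1.69%) had a more negative difference. LOF differed from WT by -0.38 (SE 0.21, interval -0.84 to 0.08), so its intermediate mean was not separated from WT at this precision. The difference of GOF from LOF was -0.64 (SE 0.21, interval -1.10 to -0.18), and it was -0.38 without GOF replicate 3.

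Tollo showed the smallest difference of the 3 genes. It read 2242, 1641 and 2545 on the WT arrays, 1516, 1694 and 1051 on the GOF arrays, and 1897, 2490 and 2163 on the LOF arrays. GOF and WT readings overlapped, since WT replicate 2 lay below GOF replicate 2, whereas every GOF reading lay below every LOF reading. Means were 2143 ± 460 in WT, 1420 ± 332 in GOF and 2183 ± 297 in LOF (SD, n = 3 each), with WT and LOF level within their spread. The log2 difference of GOF from WT was -0.60 (SE 0.19, interval -1.02 to -0.17), 1.51-fold lower or 1.33-fold with base e, and 1007 genes (9.29%) had a more negative one. LOF differed from WT by 0.04 (SE 0.19, interval -0.38 to 0.47) and GOF from LOF by -0.64 (SE 0.19, interval -1.07 to -0.21). Without GOF replicate 3 the difference of GOF from WT was -0.40.

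**Figure D1:**
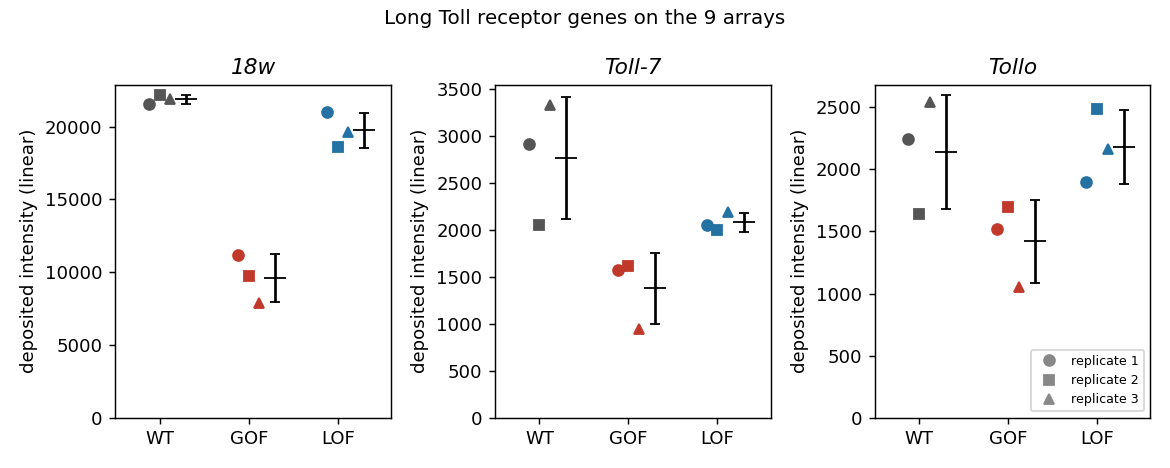
Deposited linear intensity (vertical axes, from 0) of 18w, Toll-7 and Tollo on the 3 arrays of each group, with marker shape for the replicate number and a black bar for the group mean ± SD. GOF arrays are lowest for 18w (7852 to 11186) and Toll-7 (940 to 1614), while for Tollo the GOF reading of 1694 lies above the WT reading of 1641.

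Counted together, 3 of 3 measured genes were called lower in GOF than in WT, where 20.1% of all genes were called lower and 16.6% higher. The split over all genes turned with the scaling, from 2180 lower and 1802 higher to 1718 lower and 2089 higher after cyclic loess. In LOF against WT, 0 of 3 were called by limma, against 3.37% of all genes called lower and 1.36% higher. At an unadjusted p under 0.05 there were 0 of 3 as well, a count without a share over all genes. In GOF against LOF, 3 of 3 were called lower (19.4% of all genes lower, 17.7% higher), 18w in 16, Toll-7 in 11 and Tollo in 12 of 16 alternative settings. By non-overlap of the readings, 2 of 3 genes lay wholly lower in GOF than in WT (24.9% of all genes), 1 of 3 in LOF than in WT (12.5%) and 3 of 3 in GOF than in LOF (29.6%). The genes were chosen with these comparisons known, so nothing is read from these counts, and the comparisons share arrays. In GOF against WT the calls of 18w and of Toll-7 stood in 16 of 16 alternative settings. That of Tollo stood in 11 and ended after cyclic loess, when the LOF arrays were kept out of the fit, and without WT replicate 1, WT replicate 3 or GOF replicate 3.

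The genes differed in how much replicates scattered. The SD of log2 values among WT arrays was 0.019 for 18w, 0.36 for Toll-7 and 0.326 for Tollo. Pooled over the groups it was 0.157, 0.331 and 0.302, which exceeded that of 64.1%, 96.8% and 95.5% of all genes. Toll-7 and Tollo deviated together on the WT arrays: replicate 2 lay lowest for both (-0.40 and -0.36 from the group mean, log2), and replicate 3 highest (0.30 and 0.27). The same order was not particular to them: hep (3567, 2878 and 4044) and shg (3624, 3079 and 4218), for example, had it on the WT arrays too. 18w did not share this, with WT deviations between -0.02 and 0.02. On GOF replicate 3 all 3 genes were at their lowest, by -0.27 for 18w, -0.51 for Toll-7 and -0.41 for Tollo. In LOF, Tollo was lowest on replicate 1 (-0.19) and 18w highest there (0.09). The summed maternal egg RNA was 23388, 37612 and 40283 on GOF replicates 1, 2 and 3. It was highest on replicate 3, where all 3 receptor genes read lowest. From replicate 1 to replicate 2 this sum rose too, while 18w read lower (11186 and 9743) but Toll-7 (1576 and 1614) and Tollo (1516 and 1694) read higher. The 2 measured muscle genes summed to 1272, 1531 and 3329 on these arrays, also highest on replicate 3. The part of maternal or muscle RNA in the receptor readings was not tested.

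**Figure D2:**
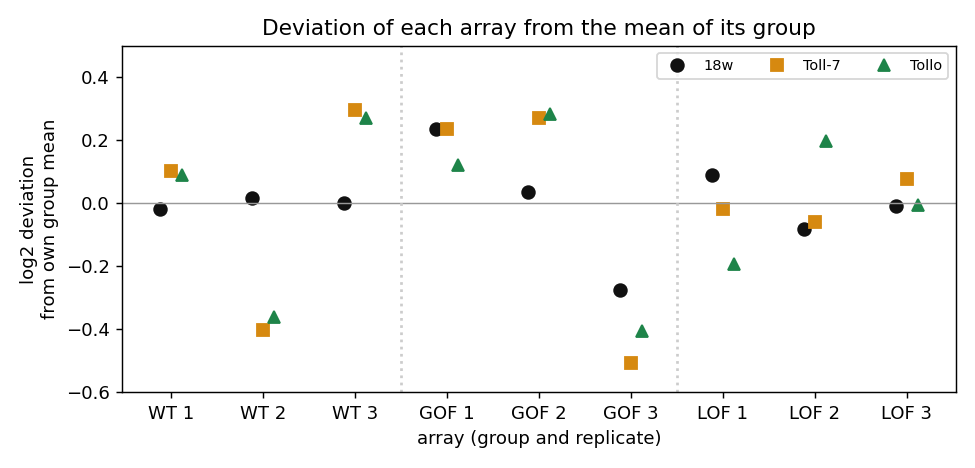
Deviation of each array from the mean of its own group in log2(intensity + 1) (vertical axis) for 18w, Toll-7 and Tollo, with the 9 arrays on the horizontal axis. WT replicate 2 is low for Toll-7 (-0.40) and Tollo (-0.36) but not for 18w (0.02), and GOF replicate 3 is low for all 3 genes.

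Of the other Toll family receptors, 3 of 4 were measured. Tl itself was called higher in GOF, unlike the long receptors. Its readings were 6151, 5831 and 6722 on the WT arrays, 6581, 9517 and 10956 on the GOF arrays, and 6552, 6201 and 5369 on the LOF arrays. GOF replicate 1 lay within the WT range, while the other two GOF arrays lay above all WT and LOF readings. The log2 difference was 0.50 (SE 0.16, adjusted p = 0.0291 in limma), and the call stood in 11 of 16 settings, with an adjusted p up to 0.106. Summed maternal egg RNA also rose over GOF replicates 1, 2 and 3 (23388, 37612 and 40283), and its part in the Tl readings was not tested. Toll-4 (111 ± 20.1 in WT, 110 ± 10 in GOF) and Tehao (277 ± 31.8 and 246 ± 11.9) were not called. In LOF 0 of the 3 were called in limma, and 0 had an unadjusted p under 0.05.

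All 6 genes of the Spätzle family, the ligands of Toll receptors, were measured, and they did not go 1 way in GOF. spz, the Tl ligand gene that is also laid down in the egg, rose from 188 ± 14.2 to 620 ± 294 (log2 difference 1.62, SE 0.25, adjusted p = 0.000344 in limma). NT1, the neurotrophin gene whose product binds Toll-7, fell from 1549 ± 174 to 1189 ± 55.6 (-0.38, SE 0.12, adjusted p = 0.0263). The call of NT1 stood in 12 of 16 settings, with an adjusted p up to 0.101. spz6 read 7363 ± 1407 and 5664 ± 1230 (adjusted p = 0.0989), and spz3, spz4 and spz5, the last a second neurotrophin gene, had log2 differences of -0.07, -0.15 and -0.15 with adjusted p from 0.215 to 0.79. The median over the family was -0.15, against -0.04 over all genes. In LOF 0 of 6 were called in limma (0 at an unadjusted p under 0.05), with adjusted p from 0.283 to 0.986, and the median was 0.11 against 0.02 over all genes.

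**Figure D3:**
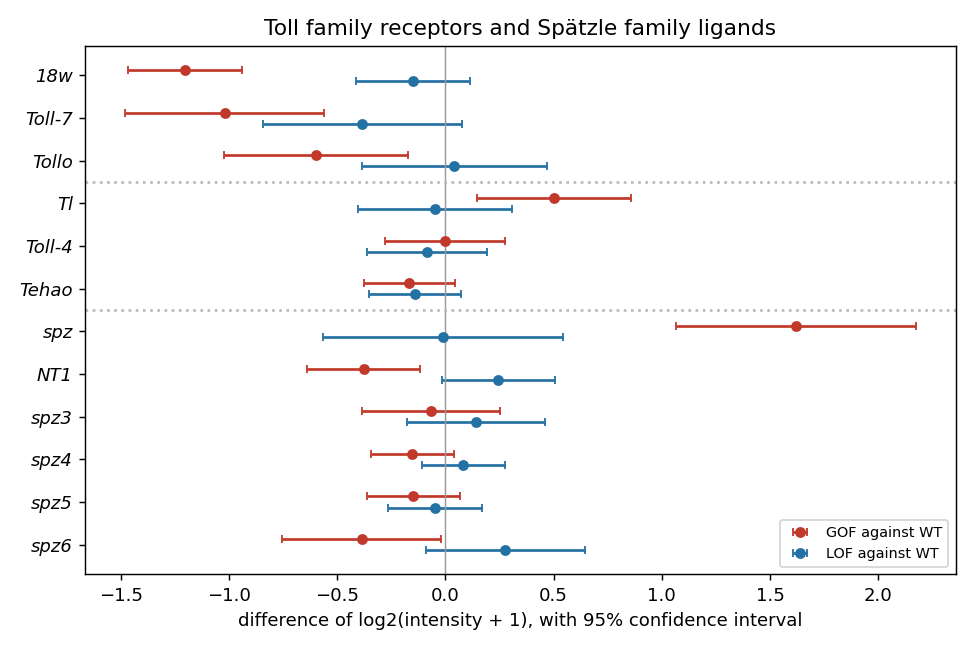
Difference of log2(intensity + 1) (horizontal axis) with its 95% confidence interval from limma for the 3 long Toll receptor genes (top), other Toll family receptors (middle) and Spätzle family ligands (bottom), GOF against WT in red and LOF against WT in blue. The long receptors lie between -1.20 and -0.60 in GOF, Tl at 0.50 and spz at 1.62, while the LOF differences lie between -0.38 and 0.28.

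Of 9 measured genes of the intracellular Toll pathway, 5 rose and 1 fell in GOF, against 16.6% of all genes called higher and 20.1% called lower, with a median of 0.47. cact, the IκB-type inhibitor that holds the Toll transcription factors in the cytoplasm, rose from 12763 ± 824 to 53288 ± 10217 (log2 difference 2.05, SE 0.13, adjusted p = 2.88e-07 in limma). The kinase gene pll (1.19, adjusted p = 4.6e-05), the zinc finger gene wek (1.03, adjusted p = 1.61e-05) and Traf6 (0.92, adjusted p = 3.81e-05) also rose, as did the adaptor gene Myd88 (0.47, adjusted p = 0.0126). tub, which encodes the adaptor that joins Myd88 to pll, fell by 0.27 (adjusted p = 0.0339), a call that stood in 9 of 16 settings. dl and Dif, the transcription factors at the end of the pathway, read 70.3 and 75 (dl) and 61.7 and 76.3 (Dif) in WT and GOF, near the lowest intensity of 29 on the arrays, and were not called. Several of these genes are also loaded into the egg for dorsoventral patterning, and the part of maternal RNA in their rise was not tested. In LOF 0 of 9 were called in limma (adjusted p from 0.126 to 0.915), against 3.37% of all genes called lower and 1.36% higher. The 4 at an unadjusted p under 0.05 did not go 1 way: Traf6 was higher (0.32), and Dif (-0.35), Myd88 (-0.31) and tub (-0.25) were lower.

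Of 16 listed partners of the long receptors and of the junctional myosin they steer, 9 were measured. In GOF 1 of 9 rose and 1 fell, against 16.6% of all genes called higher and 20.1% called lower, with a median of 0.05. cno, which links adherens junctions to actin, rose from 3447 ± 224 to 9703 ± 3118 (log2 difference 1.44, SE 0.2, adjusted p = 0.000143 in limma). Cirl, a latrophilin that binds Tollo, fell from 11017 ± 2712 to 7818 ± 1090 (-0.47, SE 0.17, adjusted p = 0.042), a call that stood in 6 of 16 settings (adjusted p up to 0.174). The teneurin gene Ten-m read 1935 ± 454 and 1646 ± 125, and the E-cadherin gene shg 3640 ± 570 and 2917 ± 321, neither of them called. In LOF 0 of 9 were called in limma, against 3.37% of all genes called lower and 1.36% higher. At an unadjusted p under 0.05 there were 3, Ten-m and Cirl higher and baz lower. Ten-m had the smallest adjusted p (0.0713, log2 difference 0.49).

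Of 13 genes for other leucine-rich repeat proteins of the cell surface, 6 fell and 0 rose in GOF, against 20.1% of all genes called lower, with a median of -0.29. The number that fell ranged from 4 to 8 over the settings. haf, which encodes a large leucine-rich repeat protein, fell from 5675 ± 485 to 2422 ± 449 (log2 difference -1.24, SE 0.13, adjusted p = 1.5e-05 in limma). trn and caps, paired genes of cell affinity at compartment boundaries and of axon targeting, fell by 1.06 and 0.64 on the log2 scale, and Con, a homophilic adhesion gene of muscles and motor axons, by 1.06. kek1, an inhibitor of the EGF receptor, and kek2 were the other two, by 0.42 and 0.29. The calls of kek1 and kek2 stood in 11 of 16 and 13 of 15 settings. In LOF 1 of 13 was called, haf (3873 ± 185, log2 difference -0.55, adjusted p = 0.0339 in limma), a call that stood in 10 of 16 settings. Of all genes 3.37% were called lower and 1.36% higher. At an unadjusted p under 0.05 there were 5 of 13, haf lower and Con, caps, kek5 and chp higher. The LOF median was 0.13, with Con at 1.06 (adjusted p = 0.0541), caps at 0.48 (adjusted p = 0.0563) and kek5 at 0.69 (adjusted p = 0.175), and up to 3 genes of the list were called higher in other settings.

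Of 11 listed pair-rule and segment polarity genes, 7 were measured. In GOF 5 of 7 fell and 0 rose, against 20.1% of all genes called lower, with a median of -0.87. eve, which controls the Toll stripes of the early embryo, before the stages sampled here, fell from 7064 ± 278 to 5512 ± 290 (log2 difference -0.36, adjusted p = 0.0049 in limma, and 0.0513 after cyclic loess). opa (-1.62, adjusted p = 7.22e-07), en (-1.58, adjusted p = 4.28e-07), hh (-1.05, adjusted p = 2.35e-06) and odd (-0.87, adjusted p = 0.000237) fell further, while ftz (-0.16, adjusted p = 0.246) and prd (-0.15, adjusted p = 0.381) were not called. In LOF, en (-0.52, adjusted p = 0.0178) and opa (-0.46, adjusted p = 0.0439) were the 2 of 7 genes called (3.37% of all genes were called lower), en in 13 and opa in 8 of 16 settings.

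Tissue markers were counted beside the receptors, against 20.1% of all genes called lower and 16.6% called higher in GOF. Epidermal genes fell in 7 of 7 measured cases (5 to 7 over the settings, median -0.99), with summed intensities of 47721 to 52526 in WT and 24097 to 27924 in GOF. mey (-1.44) and neo (-0.85), genes of the apical matrix, cora (-1.13), of the septate junction, and sha (-0.99), of denticles and hairs, had the smallest p, and the call of the chitin synthase gene kkv (-0.32) stood in 6 of 16 settings (adjusted p up to 0.154 in limma). Of 8 salivary gland genes 7 fell and 1, the apical constriction ligand gene fog (1.03, adjusted p = 0.000144 in limma), rose, with sums of 33045 to 39072 and 15492 to 16310. PH4alphaSG2 (-2.51), Papss (-2.02), sage (-1.28) and pip (-1.38) fell the most in that list. Tracheal genes fell in 6 of 7 cases, such as verm (-1.22), uif (-1.45), btl (-0.80) and kni (-0.90), with sums of 259781 to 264165 and 128111 to 129372.

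Amnioserosa genes fell in 4 of 6 cases, namely grn (-1.26), Ance (-1.09), Kr (-1.06) and peb (-1.01), the last in 9 of 16 settings, while ush (-0.30) and zen (-0.03) were not called. Hemocyte genes fell in 5 of 7 cases, such as Ppn (-0.87), srp (-0.93), vkg (-0.97) and Pxn (-0.72). Nervous system genes fell in 3 of 6 cases (repo -0.93, elav -1.38 and fne -1.003), and of 2 measured muscle genes up fell (-0.98, in 10 of 16 settings). Apart from fog, 0 genes of these tissue lists rose. 18w, Toll-7 and Tollo, at -1.20, -1.02 and -0.60, lay between the epidermal genes mey and kkv. In LOF the epidermal sums were 52234 to 59511 and the tracheal ones 250340 to 287948, both ranges overlapping those of WT. The epidermal overlap was only of LOF replicate 3 with WT replicate 1 (52526), and that list's median was 0.26 against 0.02 over all genes. In either list 0 of 7 genes were called, with adjusted p in limma from 0.0675 to 0.999. Each list had 3 genes at an unadjusted p under 0.05: cora, ovo and kkv, all higher, of the epidermis, and vvl (higher), btl and rib (both lower) of the trachea. Hemocyte sums lay above those of WT (120303 to 134528 against 78476 to 91785), and most of each sum was Ppn (means of 67586 in WT and 100769 in LOF). In that list crq went the other way (log2 difference -0.40, adjusted p = 0.0968 in limma). The hemocyte genes srp (0.07), Hml (0.11), SPARC (0.21) and vkg (0.03) were not called either. Amnioserosa sums lay below those of WT (29004 to 34885 against 42641 to 52948), and most of each sum was Ance (means of 39337 in WT and 21580 in LOF). In that list peb went the other way (1.08, adjusted p = 0.0948 in limma), with all LOF readings above all WT readings. Kr (-0.25), grn (-0.15), ush (-0.05) and zen (-0.003) were not called either. Called higher in LOF were 2 of 7 hemocyte genes, Pxn (log2 difference 1.48) and Ppn (0.58). So was 1 of 6 nervous system genes, the synaptic gene brp (0.44). Called lower were 1 of 8 salivary gland genes, PH4alphaSG2 (-1.28), and 1 of 6 amnioserosa genes, Ance (-0.86). Of 2 muscle genes 0 were called. Over all genes, 1.36% were called higher and 3.37% lower. The call of Ppn ended when its probe sets were averaged (adjusted p = 0.721), and that of brp stood in 7 of 16 settings. The part of these tissues in the receptor values was not tested.

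**Figure D4:**
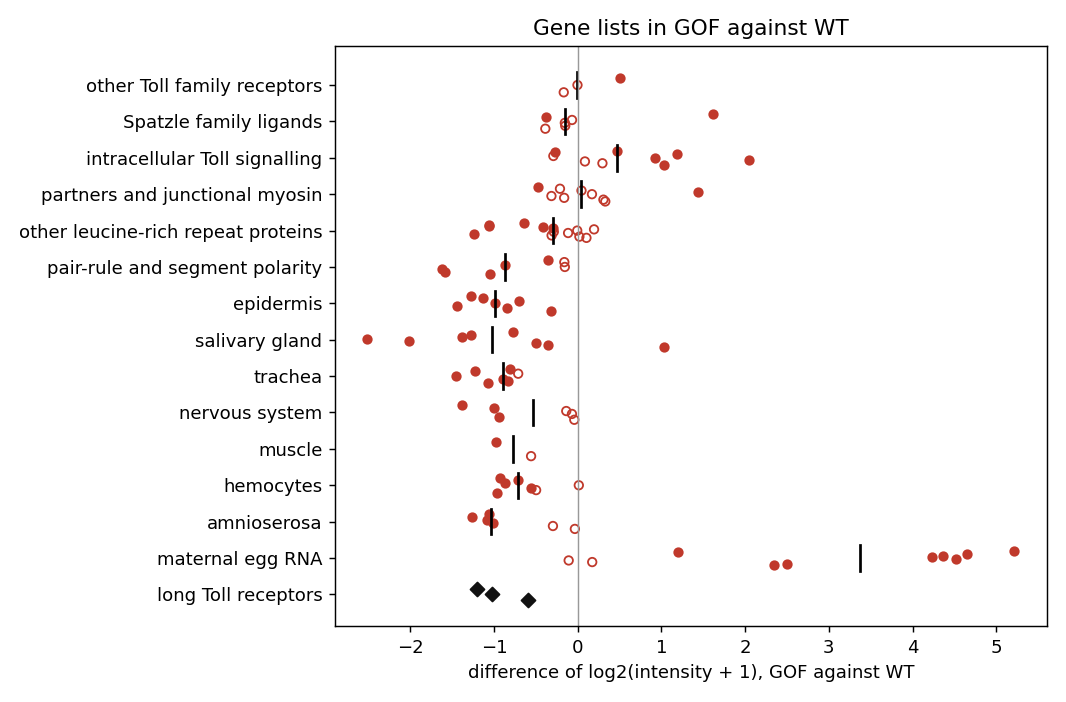
Difference of log2(intensity + 1) in GOF against WT (horizontal axis) for each measured gene of the pathway and tissue lists, filled where called and open where not, with a black line at the list median and the 3 long Toll receptor genes as diamonds. The receptors lie between -1.20 and -0.60, the epidermal, salivary gland and tracheal lists have their medians at -0.99, -1.02 and -0.90, and the maternal list at 3.37.

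Likeness of pattern was measured as Pearson's r of log2 values over the 9 arrays, which share their 3 groups, so that any gene lower in GOF alone scores high. The genes nearest to 18w were ey, the Pax6 gene (r = 0.994), sage, a salivary gland transcription factor gene (0.989), and Srp68, a subunit of the signal recognition particle (0.989). r takes no account of size: GOF differed from WT by -0.21 for ey, -1.28 for sage and -0.75 for Srp68. Nearest to Toll-7 were the cullin gene Cul3 (0.986), the ubiquitin ligase gene gol (0.979) and drm, a zinc finger gene of gut patterning (0.972). Nearest to Tollo were CG31522 (0.985), the Polycomb gene Pc (0.979) and Pgant9, a mucin-type glycosyltransferase gene (0.977). Among the receptors themselves, r was 0.894 for Toll-7 with Tollo, 0.87 for 18w with Toll-7 and 0.789 for 18w with Tollo.

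In the RefSeq gene table, 18w and Toll-7 lie on the same chromosome arm with 13 protein-coding genes starting between them, and Tollo and Toll-6 on another with 3 between. Of the genes between 18w and Toll-7, 4 were measured: CG8654 fell (log2 difference -0.35, adjusted p = 0.0241 in limma), a call that stood in 10 of 15 settings, while CG10822, CG13872 and CG16898 were not called (0.13, -0.01 and -0.08). All 3 genes between Tollo and Toll-6 were measured, and Best3, Best4 and CG7255 had log2 differences of 0.03, 0.00 and -0.16 in GOF, none of them called.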

How the data were processed

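The authors deposited 1 linear intensity per probe set and array, and per the submitters' processing notes RMA made them; the sources used here give neither version nor settings. Values run from 29 to 1331513, and 239 of 14010 probe sets pass 65535, the 16-bit limit, so base e may have been used to leave the log scale: log2 differences would then shrink by the factor 0.693. Probe sets with 1 annotated gene (12443) were kept, 327 with several were not, and the brightest stood for its gene.

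limma 3.58.1 (R 4.3.3) modelled log2(intensity + 1) with a mean for each group on all 9 arrays (6 residual degrees of freedom), two-sided, with no filter. The fit was tested on simulated data with independent noise and few changed genes. GOF is unlike that setting, so the simulation does not vouch for the calls above. Members and lists were chosen with earlier results of these data known; named are the receptors, hep, puc, each list's smallest p-values among called genes, members of lists of up to 6, and the 3 nearest genes. Genes that complete a count or a range, uncalled examples (such as shg, ftz and kek5) and those between neighbours were chosen after their values were seen. Alternatives changed the pseudocount (50), scaling, filter, probe set rule, fitted arrays and replicate block, and left out each array. Same-numbered samples correlated in their deviations at -0.18 to 0.187, so numbers were not taken to pair samples.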

Additional observations from a re-analysis of the deposited data

How the results depend on the processing

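Every called difference of 18w, Toll-7 and Tollo kept its sign in all settings run. Leaving out 1 array at a time moved GOF against WT between -1.32 and -1.07 for 18w, -1.22 and -0.77 for Toll-7, and -0.78 and -0.40 for Tollo. The uncalled LOF difference of Tollo ranged from -0.14 to 0.18 and so changed sign. In GOF against LOF, the call of Toll-7 ended after cyclic loess (-0.51), without GOF replicate 3 (-0.38) and without any of the LOF replicates, and that of Tollo after cyclic loess (-0.51), without GOF replicate 3 (-0.44) and without LOF replicate 2 or 3. Over all genes, 3982 were called in GOF against WT (3439 to 3914 without 1 array), 4025 in GOF against LOF (3442 to 4125) and 513 in LOF against WT (139 without WT replicate 1 to 718 without GOF replicate 3, with 261, 162 and 290 without LOF replicates 1, 2 and 3). The split of GOF against LOF turned from 2102 lower and 1923 higher to 1443 and 2187 after cyclic loess. The replicate block gave 3995, 3990 and 541 calls and changed no call of the receptors. The causes were not tested. With 3 arrays per group and 1 probe set per receptor, small differences such as that of 18w in LOF are not resolved.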
